A study of Mus musculus with 9 samples.

Results

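The genes described here were 10 genes of TNF, IL1 and NFkB signaling in mouse liver, out of 17846 genes listed for each mouse. They were taken by symbol: the cytokines Tnf and Il1b, the IL1 receptor antagonist Il1rn, the inhibitors Nfkbia and Tnfaip3, the NFkB subunits Nfkb2 and Relb, their nuclear partner Bcl3, and the adhesion molecules Icam1 and Vcam1. The 10 genes were chosen with earlier results of these data known, and all had enough counts to be tested. Liver RNA was sequenced from 9 wild-type male C57/BL mice that were adult when training began, with 1 library from each mouse. Control mice (n = 3) ate a normal diet. NASH mice (n = 3) were given the Ath diet for 20 weeks and stayed sedentary, and NASH+Exercise mice (n = 3) had received the same diet for 12 weeks when 8 weeks of treadmill training began. The Ath diet is rich in cholesterol and contains cholate, and it is used to produce non-alcoholic steatohepatitis (NASH) in mice. The study compared trained with sedentary mice to ask how aerobic exercise acts on this disease. The p-values below measure the spread between these mice.

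TNF and IL1 beta are secreted by activated macrophages and other immune cells and bind receptors that most liver cells carry. Both receptors activate a kinase complex that marks the inhibitor IkB alpha for destruction, and NFkB dimers then enter the nucleus. Among the genes that NFkB switches on are its own brakes: IkB alpha itself, encoded by Nfkbia, and the ubiquitin-editing enzyme A20, encoded by Tnfaip3. NFkB also raises the precursor p100 (Nfkb2) and its partner RelB (Relb), which make up the slower non-canonical branch, and Bcl3, an IkB-like protein that works with p50 or p52 in the nucleus. Il1rn encodes a secreted protein that occupies the IL1 receptor without activating it. ICAM1 and VCAM1 are surface molecules to which leukocytes attach on endothelial and other cells.

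NFkB dimers bind a DNA element known as the kappaB site, so the sequence just before each gene's start is shown for the genes in which its consensus was found. RefSeq start sites on GRCm38.p6 gave 13 windows of 250 bases for 8 of the 10 genes, all but Relb and Vcam1. The kappaB consensus of 10 bases, searched on both strands, was in 5 of the 13 windows, belonging to 3 genes, against 7.25% of all 32851 windows of this length. Nfkb2 alone gave 3 of the 5 windows, of which 2 overlap, and the genes were taken as members of this pathway. The 13 windows are thus no independent comparison with all windows. For Nfkbia the whole window is given (minus strand, chr12:55492648-55492897), which lies outside annotated genes, with the match in capitals.
Nfkbia: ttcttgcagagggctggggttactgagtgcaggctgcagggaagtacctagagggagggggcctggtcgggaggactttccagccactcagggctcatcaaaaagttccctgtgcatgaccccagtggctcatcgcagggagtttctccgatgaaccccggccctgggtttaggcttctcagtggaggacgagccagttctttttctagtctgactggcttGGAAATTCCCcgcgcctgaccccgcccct
The match ended 20 bases before the start. For Tnfaip3 and Nfkb2, whose windows overlap annotated exons in part, only the matches with a few bases on each side are shown, again in capitals and on the strand of the gene.
Tnfaip3, chr10:19015516-19015545: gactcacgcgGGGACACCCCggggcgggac
Tnfaip3, chr10:19015411-19015432: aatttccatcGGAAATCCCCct
Nfkb2, chr19:46304689-46304717: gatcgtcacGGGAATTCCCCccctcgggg
Nfkb2, chr19:46304716-46304736: ggggccgaaaGGGGCTTTCCc
Nfkb2, chr19:46305449-46305478: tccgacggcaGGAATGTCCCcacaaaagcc
Nfkb2, chr19:46305695-46305724: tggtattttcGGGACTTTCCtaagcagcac
The first window of Tnfaip3 held 2 matches, which ended 116 and 3 bases before the start. The first window of Nfkb2 held 3, of which 2 overlap each other by 9 bases and are joined in capitals above, and its other 2 windows held 1 each. Windows with 2 or more matches made up 1.03% of all windows. The windows of Tnf, Il1b, Il1rn, Bcl3 and Icam1 held no match to the consensus. That of Icam1 (plus strand, chr9:21015690-21015939), which is outside annotated genes, is given for comparison, since Icam1 is among the genes that rose in NASH.
Icam1: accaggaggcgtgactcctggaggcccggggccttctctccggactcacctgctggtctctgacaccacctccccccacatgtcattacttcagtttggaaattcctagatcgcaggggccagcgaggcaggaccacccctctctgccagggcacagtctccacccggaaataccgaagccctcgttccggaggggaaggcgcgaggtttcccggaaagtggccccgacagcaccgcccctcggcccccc
A match is a description of the letters in the window and no evidence of binding. A window without a match to the consensus may still hold a kappaB site.

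**Figure D1:**
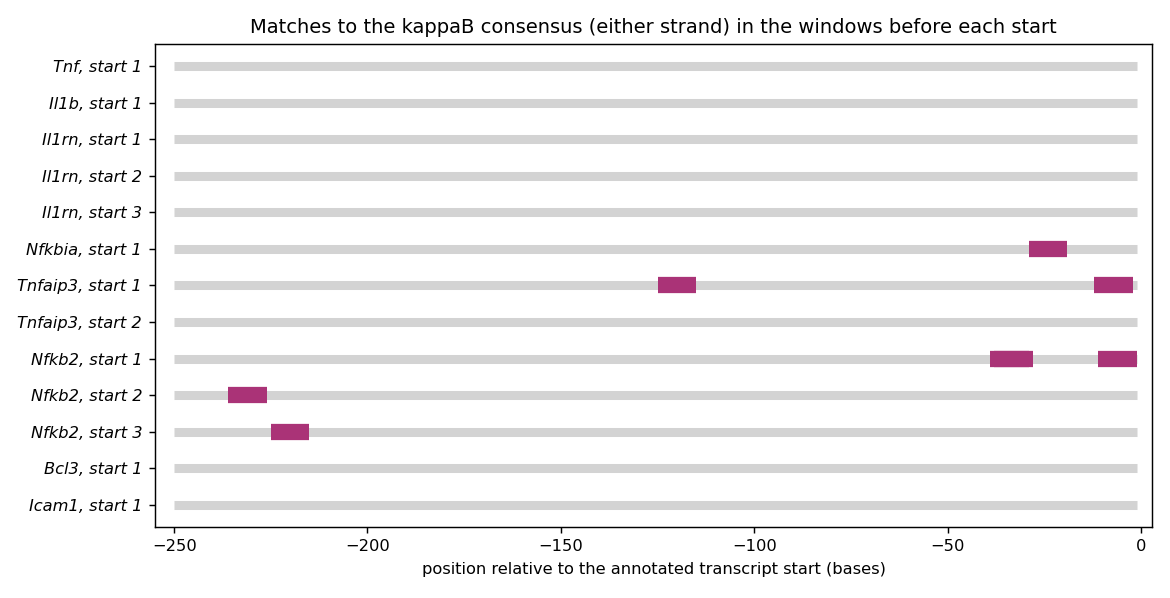
Position of each match to the kappaB consensus (coloured bars) along the windows of 250 bases (grey) before the annotated starts, with the distance from the start in bases on the x axis and 1 row for each start. Matches lie in the single window of Nfkbia, in the first of Tnfaip3 and in all 3 of Nfkb2, and 2 of the 3 in the first Nfkb2 window overlap and show as 1 bar.

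Each mouse had between 20086004 and 22495449 estimated counts, and 15369 to 16313 genes with at least 1 count. CPM values below express a gene's counts relative to the size of its library after TMM normalization. The TMM factors of the Control libraries lay between 0.800 and 0.976, those of the NASH libraries between 1.09 and 1.23 and those of the trained mice between 0.912 and 1.08. Scaling by library size alone moved the median over all genes, on the log2 scale, from 0.01 to 0.36 in NASH against Control, and from -0.03 to -0.23 in NASH+Exercise against NASH. TPM values, which also take the length of the transcript into account, are used wherever genes are compared with each other and for sums of marker genes. On the log2(TPM + 0.1) scale, the median over all genes was 0.44 in NASH against Control and -0.33 in NASH+Exercise against NASH. A gene was called when its log2 fold change was above 1 or below -1 and its p in edgeR's quasi-likelihood test, adjusted by the Benjamini-Hochberg method over 13619 genes, was under 0.05. All 10 hepatocyte markers examined had counts in every group, and their summed TPM was between 76390 and 111600 in every mouse. Values of single mice are given in the order of replicates 3, 4 and 29 for Control, 5, 19 and 20 for NASH and 8, 18 and 22 for NASH+Exercise, the numbers in the labels.

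In NASH compared with Control, 8 of the 10 genes rose, all but Nfkbia and Bcl3, and none fell, where 15.3% of all genes tested were called higher. DESeq2 also called 8. The median log2 fold change of the 10 was 2.27, against 0.01 for all genes tested. The 3 NASH mice lay above the 3 Control mice in 9 of the 10, where 49.6% of all genes had groups that did not overlap in either direction. In NASH+Exercise compared with NASH, 0 of the 10 were called by edgeR, where 0.14% of all genes were. By DESeq2 1 was called, 3 had an unadjusted p under 0.05 by edgeR, and the median log2 fold change of the 10 was -0.16. The shares of all genes given here and below are those of edgeR. No such share is given for DESeq2, so its calls stand without a background. In NASH+Exercise compared with Control, 9 of the 10 rose, where 10.4% of all genes were called higher, and their median was 2.05. Groups did not overlap in 9 of the 10, where 38.6% of all genes had such groups. These comparisons share the NASH or the Control mice, so they are not independent of each other. In whole liver, fewer cells of a type and less RNA per cell cannot be told apart.

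**Figure D2:**
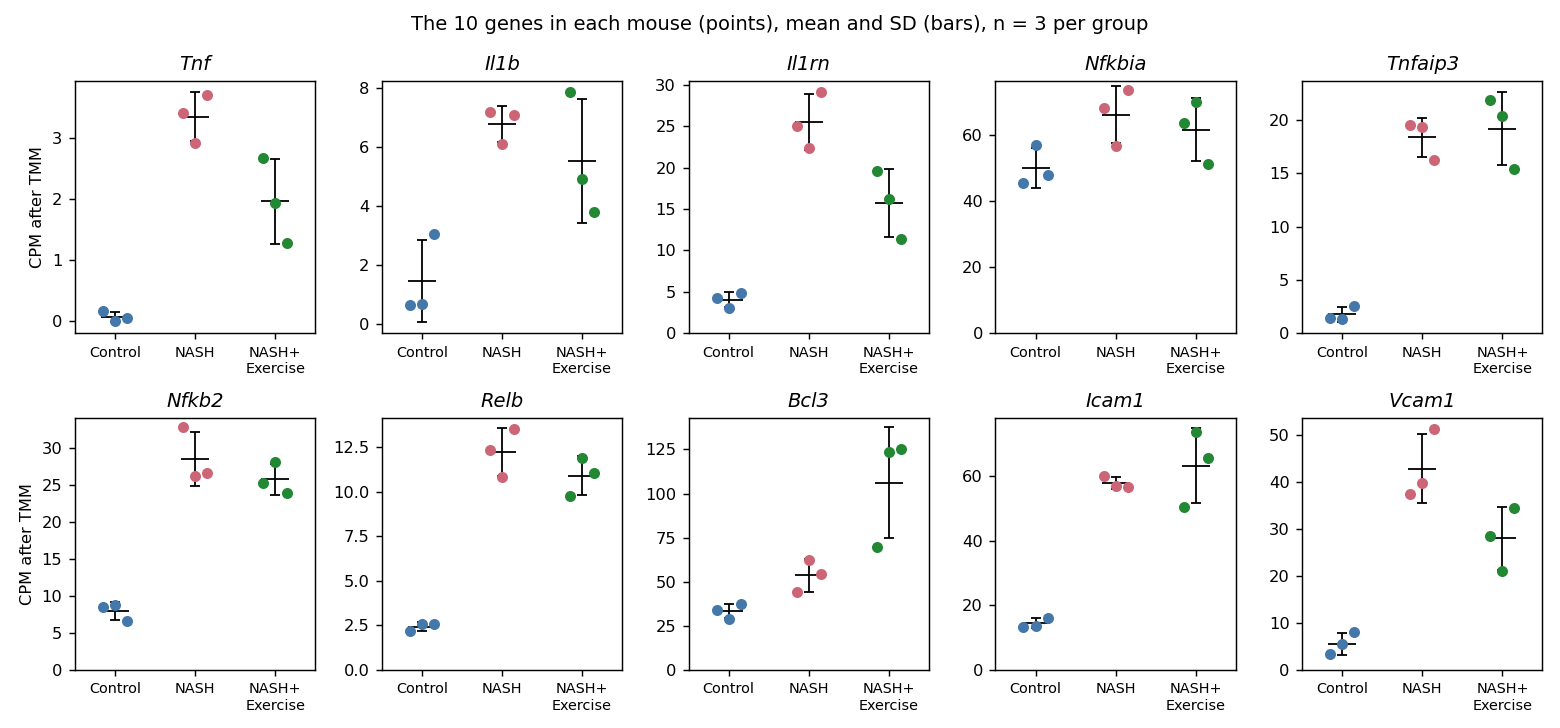
CPM after TMM (y axis, linear) of the 10 genes in each of the 9 mice, as points, with the mean and SD of each group (n = 3) as bars. Control points lie below all NASH points in every panel but that of Nfkbia, and the NASH+Exercise points lie wholly below the NASH points for Tnf, Il1rn and Vcam1 and wholly above them for Bcl3.

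Tnf (Entrez Gene 21926; chr17:35199367-35202007, minus strand, GRCm38.p6), the first cytokine of the pathway, had 3, 0 and 1 counts in the Control mice, 82, 75 and 87 in NASH and 61, 41 and 26 in NASH+Exercise. In CPM these were 0.161, 0 and 0.0510 in Control, then 3.41, 2.91 and 3.70, then 2.66, 1.94 and 1.27. Tnf was thus all but absent from the Control libraries, and each of the 3 groups lay apart from the other two. Tnf rose in NASH to at least 20.8 times the level that 3 counts in each Control library would give (adjusted p = 4.63e-05 by the edgeR quasi-likelihood test, Benjamini-Hochberg adjusted). In NASH+Exercise it was at least 12.2-fold higher than in Control (adjusted p = 0.000241, the same edgeR test). Such a bound covers counting error only. Tnf in the trained mice differed from NASH by -0.76 on the log2 scale (95% interval -1.54 to 0.01), with an unadjusted p of 0.0516 and an adjusted p of 0.331 (the same edgeR test).

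Il1b (Entrez Gene 16176; chr2:129364569-129371164, minus strand) encodes IL1 beta. The antisense gene Il1bos overlaps it, and reads from both could not be told apart if strand was not used in counting, which is not stated. Its CPM was 0.644, 0.667 and 3.06 in Control mice, 7.19, 6.09 and 7.10 in NASH mice and 7.86, 4.91 and 3.80 in NASH+Exercise mice. Control replicate 29 stood well above the other Control mice, yet below every mouse on the Ath diet, and the trained mice spread on both sides of the NASH values. Il1b rose 4.598-fold in NASH (standard error 0.52 on the log2 scale, adjusted p = 0.0091 by the edgeR quasi-likelihood test, Benjamini-Hochberg adjusted), and its log2 fold change was 3.32 without Control replicate 29. In NASH+Exercise against Control it was 1.91 (adjusted p = 0.0243, the same edgeR test), and 3.04 without that mouse. This call was lost without Control replicate 3, Control replicate 4 or NASH+Exercise replicate 8, with adjusted p of 0.0766, 0.0648 and 0.0863, and with only the 2 groups fitted (adjusted p = 0.0595, the same edgeR test). Trained and NASH mice differed by -0.30 on the log2 scale, with a 95% interval of -1.34 to 0.75.

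Il1rn (Entrez Gene 16181; chr2:24336860-24351491, plus strand), the antagonist, had CPM of 4.29, 3.06 and 4.796 in Control mice, 24.98, 22.4 and 29.2 in NASH mice and 19.6, 16.2 and 11.4 in NASH+Exercise mice. The 3 groups did not overlap, with the trained mice in between. It rose 6.28-fold in NASH, by 2.65 on the log2 scale (standard error 0.23, adjusted p = 1.89e-05 by the edgeR quasi-likelihood test, Benjamini-Hochberg adjusted). In NASH+Exercise, Il1rn was 3.87-fold above Control (adjusted p = 0.000185, the same edgeR test). Its log2 fold change between NASH+Exercise and NASH was -0.70 (95% interval -1.16 to -0.23), with an unadjusted p of 0.00706 and an adjusted p of 0.179 (the same edgeR test).

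Antagonist and ligand act on the same receptor, so their levels were also compared within each library, as the log2 ratio of Il1rn to Il1b in TPM with 0.1 added to both. The ratio was 1.72, 1.17 and -0.14 in the Control mice, 0.93, 1.02 and 1.19 in the NASH mice and 0.49, 0.85 and 0.68 in the NASH+Exercise mice. Il1rn exceeded Il1b in every mouse but Control replicate 29. The means were 0.92 ± 0.96, 1.05 ± 0.13 and 0.67 ± 0.18 (SD, n = 3), and the NASH+Exercise mice all lay below the NASH mice. In an exact two-sided permutation test, the difference of -0.38 between NASH+Exercise and NASH had p = 0.1, the smallest that 3 mice against 3 allow, and 0.3 adjusted over the 3 comparisons by the Benjamini-Hochberg method. The difference between NASH and Control was 0.13 (exact permutation p = 0.9), and that between NASH+Exercise and Control was -0.25 (exact permutation p = 0.7), both 0.9 after adjustment.

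Nfkbia (Entrez Gene 18035; chr12:55489409-55492647, minus strand), the gene of IkB alpha, had CPM of 45.5, 56.7 and 47.7 in Control mice, 68.0, 56.5 and 73.5 in NASH mice and 63.6, 69.8 and 51.2 in NASH+Exercise mice. NASH replicate 19 lay just below the highest Control mouse, and all 3 groups overlapped. Its log2 fold change was 0.40 in NASH against Control (standard error 0.15, adjusted p = 0.063 by the edgeR quasi-likelihood test, Benjamini-Hochberg adjusted), the smallest of the 10 genes. It was 0.75 under library size alone (adjusted p = 0.00385, the same edgeR test) and 0.82 on the log2(TPM + 1) scale (adjusted p = 0.00287, limma). Under neither did Nfkbia pass the threshold on the fold change. With each mouse left out, its adjusted p in the same edgeR test was under 0.05 without Control replicate 4 (0.0374) or NASH+Exercise replicate 22 (0.0488). It was above 0.05 without any other mouse. In TPM, the NASH mice, at 77.4 to 88.5, lay above the Control mice, at 43.3 to 51.1, and above the trained mice, at 47.45 to 73.74. Trained mice differed from NASH mice by -0.10 on the log2 scale of the fit, with a 95% interval of -0.44 to 0.24.

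Tnfaip3 (Entrez Gene 21929; chr10:19000910-19015410, minus strand), the gene of A20, had CPM of 1.40, 1.33 and 2.55 in Control mice, 19.5, 19.4 and 16.2 in NASH mice and 21.9, 20.4 and 15.4 in NASH+Exercise mice. All 6 mice on the Ath diet lay far above the Control mice, and the NASH and NASH+Exercise values were interleaved. Tnfaip3 rose 10.4-fold in NASH (log2 fold change 3.37, standard error 0.25, adjusted p = 7.89e-06 by the edgeR quasi-likelihood test, Benjamini-Hochberg adjusted) and 10.8-fold in NASH+Exercise (adjusted p = 1.36e-05, the same edgeR test). Its log2 fold change between the diet groups was 0.06 (95% interval -0.39 to 0.52), and -0.13 under library size alone. Of the 2 inhibitors, Tnfaip3 was thus called higher in NASH and Nfkbia was not called.

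Nfkb2 (Entrez Gene 18034; chr19:46300994-46312400, plus strand), which encodes p100 and its product p52, is overlapped by the antisense gene AC114539.1, with the same limit as for Il1b. Its CPM was 8.53, 8.79 and 6.58 in Control mice, 32.8, 26.2 and 26.7 in NASH mice and 25.2, 28.0 and 23.9 in NASH+Exercise mice. In CPM, the Control mice lay apart from both diet groups, which overlapped each other. In TPM, the trained mice, at 11.02 to 14.35, lay below the NASH mice, at 15.64 to 20.11. It rose 3.58-fold in NASH (adjusted p = 1.49e-05) and 3.23-fold in NASH+Exercise (adjusted p = 4.00e-05, edgeR quasi-likelihood test, Benjamini-Hochberg adjusted).

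Relb (Entrez Gene 19698; chr7:19606217-19629438), which encodes the partner of p52, had CPM of 2.15, 2.56 and 2.55 in Control mice, 12.3, 10.8 and 13.5 in NASH mice and 9.73, 11.9 and 11.1 in NASH+Exercise mice. The pattern over the groups was that of Nfkb2, with Control apart and the diet groups overlapping in CPM. In TPM, the trained mice, at 7.47 to 8.74, lay below the NASH mice, at 10.61 to 11.79. The rise was 5.05-fold in NASH (adjusted p = 6.94e-06) and 4.50-fold in NASH+Exercise (adjusted p = 1.73e-05, edgeR quasi-likelihood test, Benjamini-Hochberg adjusted). From NASH to NASH+Exercise, the log2 fold changes of Nfkb2 and Relb were -0.15 (95% interval -0.47 to 0.17) and -0.17 (95% interval -0.49 to 0.16).

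Bcl3 (Entrez Gene 12051; chr7:19808462-19822824, minus strand) lies 179024 bp from Relb on chromosome 7. In CPM, it was the 1 gene of the 10 whose trained mice all lay above the NASH mice. Its CPM was 33.9, 28.9 and 37.0 in Control mice, 44.0, 62.5 and 54.3 in NASH mice and 69.9, 123.6 and 125.0 in NASH+Exercise mice. The 3 groups did not overlap in CPM, and the trained mice were highest, with NASH+Exercise replicate 8 well below the other two trained mice. The value for NASH against Control was 0.69 on the log2 scale (standard error 0.22, adjusted p = 0.0344 by the edgeR quasi-likelihood test, Benjamini-Hochberg adjusted), short of the threshold on the fold change. It was 1.04 under library size alone and 1.09 on the log2(TPM + 1) scale, where the gene was called. In NASH+Exercise against Control, Bcl3 rose 3.19-fold (adjusted p = 0.00047, the same edgeR test).

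Bcl3 in the trained mice was at 1.98 times its NASH level, a difference of 0.99 on the log2 scale (standard error 0.22, 95% interval 0.49 to 1.48), with an unadjusted p of 0.00114 and an adjusted p of 0.122 (edgeR quasi-likelihood test, Benjamini-Hochberg adjusted). The call depended on the tool and on a single mouse, and the value ran from 0.64 to 1.22 over all alternatives, lowest on the log2(TPM + 1) scale. In TPM the groups overlapped, at 46.96 to 73.6 among NASH mice and 69.8 to 107.9 among trained mice. With DESeq2 it was called at a log2 fold change of 1.01 with all 9 mice (adjusted p = 0.00312, DESeq2) and 1.04 with the 6 mice of the comparison (adjusted p = 0.00108, DESeq2). Without NASH+Exercise replicate 8, edgeR called it as well, at 1.22 (adjusted p = 0.0324, edgeR's quasi-likelihood test).

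Icam1 (Entrez Gene 15894; chr9:21015940-21028814, plus strand), the ligand of leukocyte beta2 integrins, had CPM of 13.3, 13.7 and 16.1 in Control mice, 60.0, 57.1 and 56.6 in NASH mice and 50.6, 73.7 and 65.6 in NASH+Exercise mice. The NASH mice agreed closely, with a coefficient of variation of 3.21%, while the trained mice lay on both sides of them. Icam1 rose 4.03-fold in NASH (adjusted p = 8.70e-06) and 4.41-fold in NASH+Exercise (adjusted p = 1.33e-05, edgeR quasi-likelihood test, Benjamini-Hochberg adjusted). Its log2 fold change between the diet groups was 0.13 (95% interval -0.19 to 0.45), and -0.08 under library size alone.

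Vcam1 (Entrez Gene 22329; chr3:116110020-116129688), the ligand of the integrin VLA4, had CPM of 3.33, 5.45 and 8.01 in Control mice, 37.5, 39.9 and 51.4 in NASH mice and 28.5, 21.2 and 34.5 in NASH+Exercise mice. The 3 groups did not overlap, and the trained mice were in between, whereas those of Icam1 were not. Vcam1 rose 7.65-fold in NASH (adjusted p = 6.51e-05) and by 2.32 on the log2 scale in NASH+Exercise (adjusted p = 0.000382, edgeR quasi-likelihood test, Benjamini-Hochberg adjusted). Its log2 fold change between NASH+Exercise and NASH was -0.61 (95% interval -1.22 to -0.01), with an unadjusted p of 0.0462 and an adjusted p of 0.317 (the same edgeR test).

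Seen together, the comparison of NASH+Exercise with NASH held no call by edgeR's quasi-likelihood test among the 10 genes and 1 by DESeq2, that of Bcl3. Il1rn, Bcl3 and Vcam1 had an unadjusted p under 0.05, which makes 3 of 10, where 15.3% of all genes tested had one. In CPM, groups did not overlap for Tnf, Il1rn and Vcam1, lower in the trained mice, and for Bcl3, higher. This makes 4 of 10 where 24.1% of all genes did so, 14.9% lower and 9.16% higher. In TPM, the trained mice also lay wholly below the NASH mice for Nfkbia, Nfkb2 and Relb, while those of Bcl3 overlapped them. The median over all genes was -0.33 on the log2(TPM + 0.1) scale, and no share of all genes is given for groups in TPM. Fitted values were below 0 for 7 of the 10, against 54.9% of all genes, and for Tnfaip3 and Icam1 the sign turned negative under library size alone and on the TPM scale. The 95% intervals exclude a fall to below 0.5 of the NASH level for Nfkbia, Tnfaip3, Nfkb2, Relb, Bcl3 and Icam1, but not for Tnf, Il1b, Il1rn and Vcam1.

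**Figure D3:**
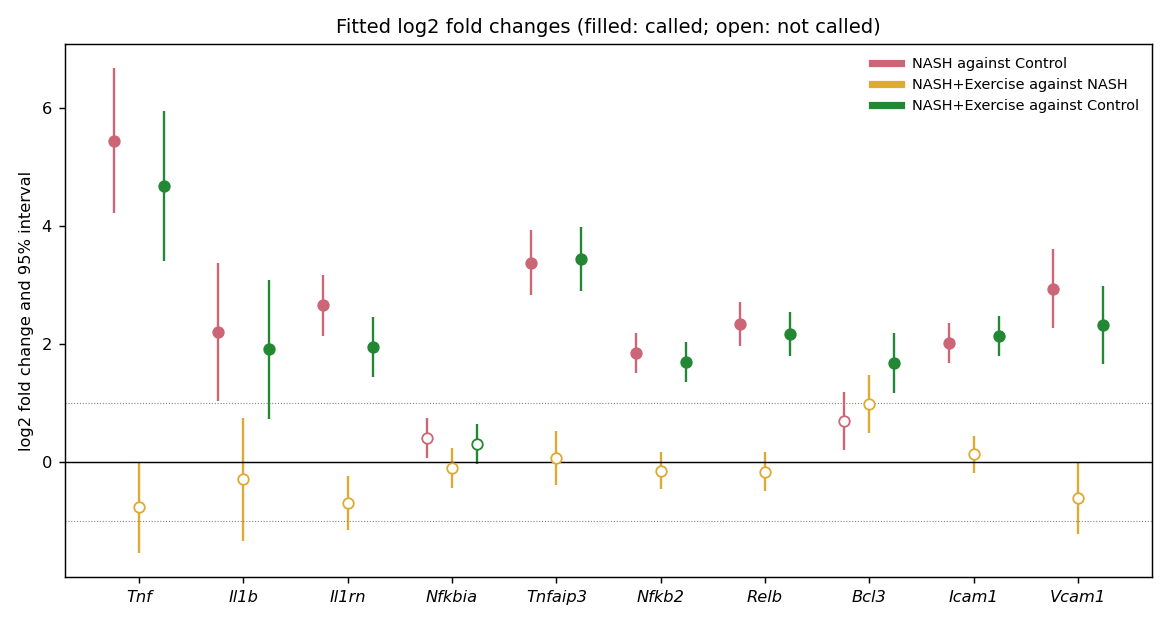
Fitted log2 fold changes of the 10 genes in the 3 comparisons (colours), with bars for the 95% interval, filled where the gene was called and open where it was not, and dotted lines at 1 and -1. The NASH+Exercise against NASH points are all open, from -0.76 for Tnf to 0.99 for Bcl3, and the values of Tnf against Control depend on how its near-zero Control counts are handled.

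Levels of different genes were compared in TPM. In Control livers, Nfkbia had the highest mean, with 46.8 TPM, followed by Bcl3 with 27.3 and Icam1 with 8.42, and the ranges of these 3 over mice did not overlap. Nfkb2 came next with 3.53 TPM, then Il1rn with 2.497, Vcam1 with 2.47, Il1b with 1.68, Relb with 1.63, Tnfaip3 with 0.607 and Tnf with 0.0667. Neighbours from Il1rn to Relb overlapped over mice, and so did Il1b and Tnfaip3, while Tnf lay below all others.

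In NASH livers the order was Nfkbia with 83.4 TPM, Bcl3 with 58.9, Icam1 with 45.3, Vcam1 with 24.9, Il1rn with 20.5, Nfkb2 with 17.8, Relb with 11.2, Il1b with 9.84, Tnfaip3 with 8.32 and Tnf with 4.03. The neighbours that overlapped over mice were Bcl3 with Icam1, Vcam1 with Il1rn, and Il1rn with Nfkb2. Vcam1 thus moved from the sixth place to the fourth, and Tnf and Tnfaip3 stayed in the last places. In NASH+Exercise livers, Bcl3 came first with 92.5 TPM and Nfkbia second with 64.1, though their ranges overlapped. Icam1 followed with 39.9, and Tnf was again last with 2.02. Vcam1, Nfkb2, Il1rn, Relb, Tnfaip3 and Il1b lay between 13.2 and 6.71 TPM, each overlapping the next.

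The mice of a group did not rank alike for all 10 genes. Among the trained mice, replicate 22 was the lowest in CPM for 6 genes, namely Tnf, Il1b, Il1rn, Nfkbia, Tnfaip3 and Nfkb2. Replicate 8 was the highest for Tnf, Il1b, Il1rn and Tnfaip3 and the lowest for Relb, Bcl3 and Icam1. Control replicate 29 was the highest Control mouse for 6 genes, and NASH replicate 19 the lowest NASH mouse for 6. The coefficient of variation of CPM was 3.21 to 17.3% among NASH mice and 8.16 to 37.9% among trained mice. Over all 9 mice, Relb followed the mean log2 CPM profile of the 10 genes most closely, with a root mean square distance of 0.154, and Tnf least closely, with 1.004. The genes outside the 10 with the most similar profiles were P2rx7 (distance 0.0875), Kcnj10 (0.150), Cass4 (0.151), Fermt3 (0.166) and Oas2 (0.169), among the 13619 tested. P2rx7, which encodes an ATP-gated channel of immune cells, had a mean CPM of 2.05 in Control mice, 10.8 in NASH mice and 9.02 in NASH+Exercise mice.

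Most markers of macrophages, of neutrophils and of T and NK cells also rose in NASH, where 15.3% of all genes tested were called higher. Of 11 macrophage markers, 10 rose in NASH, and their summed TPM was 61.3 to 123.7 in Control mice, 659.8 to 837.8 in NASH mice and 457.8 to 572.4 in trained mice, with no overlap between groups. The highest Control value, 123.7, was that of replicate 29, the mouse with the highest Control Il1b. Differences between groups in this sum and in those below include the shift of the TPM scale given above. Of 10 neutrophil markers, 8 rose in NASH, and Cxcr2 and Ly6g, at -0.51 and 0.62 on the log2 scale, were not called. The summed TPM of the 10 was 8.81 to 16.4, 104.6 to 136.0 and 57.3 to 98.3 in the 3 groups, with Camp at 0 in all Control mice. All 11 tested markers of T and NK cells, of 12 listed, rose, with sums of 4.04 to 8.46, 38.8 to 45.4 and 14.6 to 24.5 TPM. None of these 3 lists had a gene called in NASH+Exercise against NASH, where 0.14% of all genes were called. In that comparison 3, 1 and 6 genes had an unadjusted p under 0.05, where 15.3% of all genes had one. In CPM, these 2 groups did not overlap for 3, 2 and 7 genes of the lists, where 24.1% of all genes had such groups. DESeq2 called 2 macrophage markers (Ccr2 and Ly6c2, of recruited monocytes) and 1 of T and NK cells (Gzmb) lower in the trained mice, and no neutrophil marker. The part of these cells in the results for the 10 genes was not tested.

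Sinusoidal endothelial cells carry ICAM1 and VCAM1, and 2 of their 9 markers rose in NASH. Here and for the lists below, 15.3% of all genes tested were called higher. The median log2 fold change of the 9 was 0.43, with 2 of them below 0. Their sums were 68.4 to 142.7 TPM in Control mice, 140.7 to 191.0 in NASH mice and 102.2 to 148.9 in trained mice. The Control and NASH ranges overlapped, again through replicate 29. Stellate cell markers gave 70.1 to 183.3, 201.9 to 338.6 and 130.3 to 195.9 TPM, with 2 of 7 called higher in NASH. Cholangiocyte markers gave 7.04 to 9.72, 13.5 to 46.4 and 10 to 16.5 TPM, with 2 of 4 tested called higher. Of 6 tested B cell markers and 10 hepatocyte markers none was called in NASH, with 2 and 5 at an unadjusted p under 0.05 by edgeR, and DESeq2 called none. Of the 10 hepatocyte markers, 9 had a log2 fold change below 0 in NASH (median -0.46), and Ttr (-0.70) and Asgr1 (-0.47) had an adjusted p under 0.05. NASH and Control groups did not overlap for 7 of the 10, where 49.6% of all genes had such groups. All 6 B cell markers were above 0, with a median of 0.51. The B cell sums were 4.12 to 9.23, 9.46 to 15.4 and 3.80 to 9.97 TPM. In NASH+Exercise against NASH, edgeR called no marker of these 5 cell types, where 0.14% of all genes were called, and DESeq2 called 1, Col1a1, lower. An unadjusted p under 0.05 was found for 2 stellate cell and 1 cholangiocyte markers, where 15.3% of all genes had one. The part of these cells was not tested either.

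The rest of the pathway was followed in 118 further genes listed by role, of which 107 had enough counts to be tested. These lists too were chosen with earlier results of these data known, so their counts are no independent comparison with all genes. In NASH, 53 of the 107 rose and 1 fell, where 15.3% of all genes tested were called higher and 3.03% lower, and their median log2 fold change was 1.15. Against Control, 51 rose and 1 fell in NASH+Exercise, where 10.4% of all genes were called higher and 3.07% lower. In NASH+Exercise against NASH, 0 were called by edgeR, where 0.14% of all genes were. Of the 107, 14 had an unadjusted p under 0.05, where 15.3% of all genes had one. The median of the 107 was -0.18, against -0.03 for all genes tested. DESeq2 with all 9 mice called 2 of them, Cxcl1 higher and Ccl5 lower in the trained mice.

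Among other TNF and IL1 family ligands, 7 of 9 tested rose in NASH and none fell, where 15.3% of all genes were called higher and 3.03% lower. The median of the 9 on the log2 scale was 1.73. Tnfsf13b, the B cell survival factor BAFF, rose by 2.64 on the log2 scale, and Ltb, lymphotoxin beta, by 2.08. Of 15 receptors and decoys, 5 rose, beside the same shares of all genes. Il1r1, the signaling IL1 receptor, rose from 28.9 ± 6.18 to 176.6 ± 42.7 CPM (SD, n = 3), which is 2.61 on the log2 scale, and was at 210.0 ± 70.8 CPM in NASH+Exercise. Its co-receptor Il1rap had a log2 fold change of -0.41 and was not called. The TNF receptors Tnfrsf1a and Tnfrsf1b, at 0.53 and 0.78, passed the adjusted p (0.0119 and 0.0161, edgeR quasi-likelihood test, Benjamini-Hochberg adjusted) but not the fold threshold. Cd40 rose by 2.85 and Il18bp, the decoy of IL18, by 2.76.

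Of 24 adaptors and kinases of the signaling core, 2 were called higher and none lower in NASH, beside the 15.3% and 3.03% of all genes, and the median on the log2 scale was 0.03. Groups did not overlap for 13 of the 24, where 49.6% of all genes had such groups. An adjusted p under 0.05 was found for 11, with no share of all genes given for this threshold alone. Of these 11, 8 were above 0 and 3 below (Irak2 at -0.80, Ikbkg at -0.70 and Chuk at -0.53, named after their values were seen). The called genes were Map3k14, the kinase NIK of the non-canonical branch, at 1.21, and Birc3, an adaptor of the TNF receptor complex and a regulator of NIK, at 1.15. Of the 3 other NFkB subunits, none was called in NASH by edgeR or DESeq2, and 2 had an unadjusted p under 0.05 by edgeR. Rela had a log2 fold change of -0.06, Rel 0.81 and Nfkb1 0.76, the last with an adjusted p of 0.000916 (edgeR quasi-likelihood test, Benjamini-Hochberg adjusted) and groups that did not overlap. Nfkb2 and Relb, of the 10 genes, were thus the subunits that passed both thresholds.

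Some feedback genes outside the 10 rose in NASH and others were not called, where 15.3% of all genes tested were called higher. Of 4 other IkB family genes, 3 rose in NASH, among them Nfkbid at 2.52 and Nfkbie at 2.18, while Nfkbib, at 0.27, was not called. Of 13 other feedback inhibitors, 5 rose, including Irak3, an inhibitory IL1 receptor kinase, at 3.02. Tnip3, which binds A20, had 0 counts in every Control mouse and was at least 2.83-fold higher in NASH by the floor of 3 counts. Itch, at -0.02, was not called.

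Most of the genes listed for leukocyte adhesion and for IL1 beta maturation or release rose alongside Icam1, Vcam1 and Il1b. Of all genes tested, 15.3% were called higher in NASH. Of 13 tested adhesion molecules and their ligands, 9 rose, with a median log2 fold change of 2.84, or 1.89 with Sele taken at its bound. Itgax, an integrin subunit of myeloid cells, rose by 5.05, and Sele, E-selectin, went from 0 counts in every Control mouse to at least 3.43-fold higher. Itgb1, at 0.12, was not called. Of 5 genes tied to the maturation or release of IL1 beta, 4 rose, among them Casp4 at 3.74 and Pycard, the inflammasome adaptor, at 3.47.

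Of 21 tested NFkB target genes outside the 10, 18 rose and 1 fell in NASH, where 15.3% of all genes were called higher and 3.03% lower. The median of the 21 on the log2 scale was 2.46, or 2.34 with genes near 0 in Control at their bounds. Lcn2, an iron-scavenging acute phase protein, rose from 4.53 ± 1.67 to 425.9 ± 158.8 CPM (SD, n = 3), and the neutrophil chemokine Cxcl1 from 0.961 ± 0.0988 to 35.7 ± 1.05 CPM. Cxcl1 reached 127.6 ± 93.0 CPM in NASH+Exercise, above NASH in every mouse, with a log2 fold change of 1.84 (adjusted p = 0.128 by the edgeR quasi-likelihood test, Benjamini-Hochberg adjusted). Like Bcl3, it was thus highest in the trained mice, whereas Lcn2 was at 347.7 ± 182.4 CPM, and overlapped the NASH mice. The 1 gene that fell was Gadd45b, a stress gene, at -1.64, named after its value was seen.

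**Figure D4:**
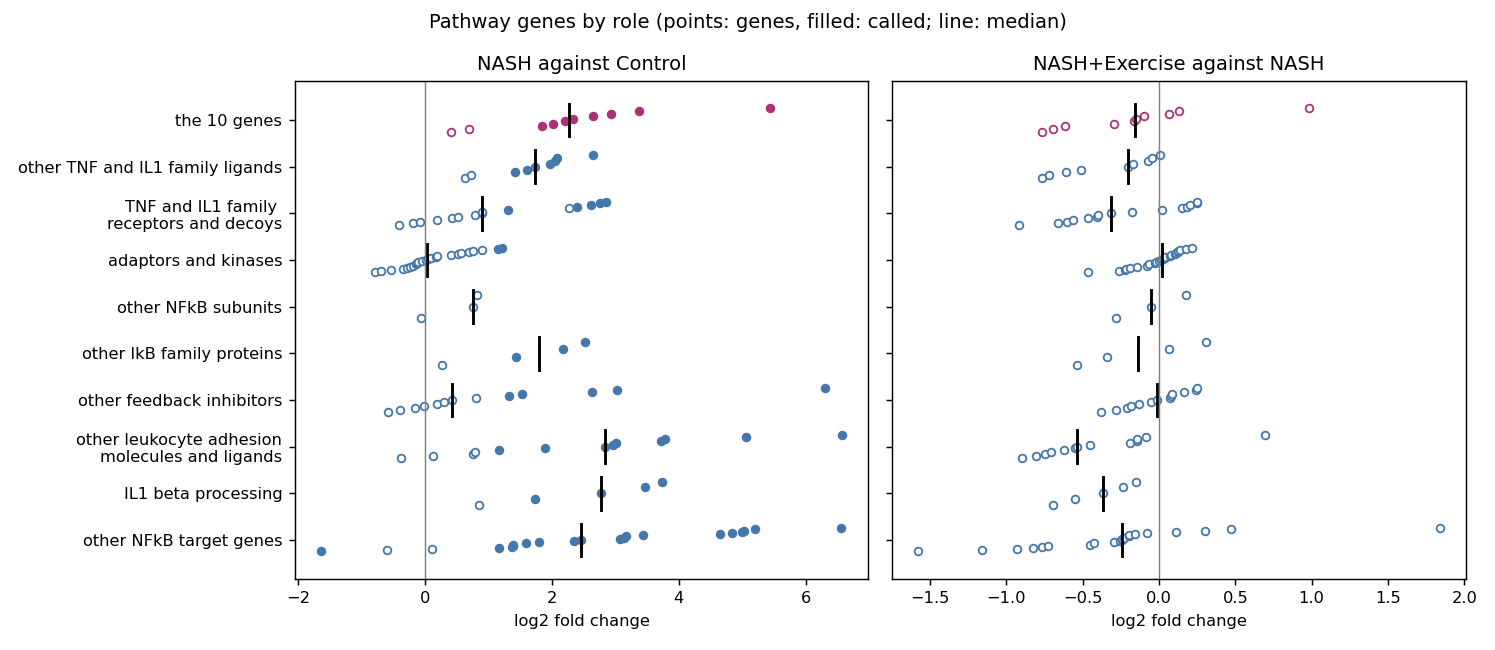
Fitted log2 fold changes (x axis) of the 10 genes and of the other pathway genes by role, in NASH against Control (left) and in NASH+Exercise against NASH (right, on a narrower scale), with 1 point for each gene, filled where called, and the median as a line. The 10 genes have a median of 2.27 on the left and -0.16 on the right, and adaptors and kinases have medians of 0.03 and 0.02, and no point on the right is filled.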

How the data were processed

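Per gene, the files deposited by the authors hold estimated counts (not normalized, 29.0 to 32.8% of them not whole), TPM and FPKM. The submitters' processing notes name HISAT2 2.1.0, Bowtie2 2.2.5, RSEM 1.2.8 and GRCm38.p6. The strand setting is not given in the sources used here. The FPKM values were not used. The 428304 values repeated between files were compared, and 0 differed. The number of columns without a sample was 0. A RefSeq table of GRCm38.p6 gave symbols for 17728 of 17846 identifiers.

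Counts were rounded and tested with edgeR 4.0.16 (R 4.3.3), using filterByExpr by group (10 counts, total 15), TMM and robust quasi-likelihood fits over the 9 mice, with no term but group. Standard errors are the log2 fold change divided by the root of the F statistic, and 95% intervals use the t distribution with the degrees of freedom of the fit (9.74 to 10.6 for the 10 genes). Lower bounds use a floor of 3 counts per library. DESeq2 1.42.0, limma 3.58.1 on log2(TPM + 1) and log2(TPM + 0.1), other scalings and filters, and each mouse left out were alternatives. Permutation tests used scipy 1.17.1 in Python 3.11.15. The fits were tested on simulated data.

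The 10 genes and all lists were chosen with earlier results of these data known. Beside the 10, each pathway list names at most 3 genes: the called genes with the 2 largest and the non-called gene with the smallest change in NASH. Selected receptors and subunits were added, and the 5 genes nearest in profile. Ccl5, Gadd45b, Irak2, Ikbkg, Chuk and single markers were named after their values were seen. Promoter sequences are from RefSeq and overlaps from GENCODE M21.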

Additional observations from a re-analysis of the deposited data

How the results depend on the processing

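Over 180 refits of the 10 genes per comparison, 177, 168 and 176 kept their direction and their side of the threshold in NASH against Control, NASH+Exercise against NASH and NASH+Exercise against Control. No called gene changed direction. Among these refits, the gains were those of Bcl3 and the losses those of Il1b given above. Tnf against Control had a fitted log2 fold change of 5.44 in NASH and 4.68 in NASH+Exercise, and 6.69 and 5.93 without Control replicate 3. Signs that turned, all in NASH+Exercise against NASH and in genes not called, were those of Nfkbia (-0.1986 to 0.018 with each mouse left out, the latter without NASH+Exercise replicate 22), Tnfaip3 (-0.13 under library size alone, -0.22 and -0.25 on log2(TPM + 1) and log2(TPM + 0.1), and, with each mouse left out, from -0.035 without NASH+Exercise replicate 8 to 0.2032 without NASH+Exercise replicate 22, with -0.02 when NASH replicate 20 was left out) and Icam1 (-0.0842, -0.18 and -0.19 under the same 3 scalings). The cause was not tested. In that comparison, DESeq2 called 1 of the 10 genes with 9 mice and 1 with the 2 groups, and of the other pathway genes 2 and 1, while limma on log2(TPM + 1) called 1 of the latter. Testing against a minimum fold change of 1 on the log2 scale, which is not among the 180 refits, left 7 of the 10 genes in NASH against Control. Of the other pathway genes, it left 41 in NASH against Control and 31 in NASH+Exercise against Control. With each mouse left out, the calls among the 10 genes ran from 8 to 8, 0 to 1 and 8 to 9 in the 3 comparisons, and among the other pathway genes from 52 to 55, 0 to 1 and 47 to 55. The differences in the Il1rn to Il1b ratio ran from -0.40 to 0.53, -0.47 to -0.28 and -0.77 to 0.16. No paired analysis was possible because the groups share no replicate numbers. With 3 mice per group, precision was limited by the spread between mice, and Tnf in Control by its few counts.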
